A study of Caenorhabditis elegans with 26 samples.

Results

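The ribosomal protein genes of the worm Caenorhabditis elegans were taken as all genes whose WormBase name starts with rpl (large subunit), rps (small subunit) or rla (the stalk of the large subunit) followed by a number. The count table of 20182 genes held 79 of them, with 45 rpl, 31 rps and 3 rla genes. All 79 passed the filter on low counts in every comparison, rpl-42 only through libraries late in the courses. A further 2 names, rpl-41.1 and rpl-41.2, were not analysed here. In course B, whole worms of the wild-type strain N2 grew on peptone-rich plates with the bacterium NA22, and 10 libraries were titled 18 to 36 h, every 2 h. In course A, N2 worms grew on plates with the bacterium OP50, and 16 libraries were titled 21 to 36 h, every 1 h. Both courses started from egg preparations whose hatched first-stage larvae were put on food, and no mutation or drug was used in either. Course A worms were harvested 1 h after the titles, which the labels hold to be nearer to developmental age because this course grew slowly. Times below are the title times.

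A ribosome joins a small subunit, which decodes the messenger RNA, to a large subunit, which forms the peptide bonds. For the most part, the proteins of either subunit are needed in about the same number of molecules. Most ribosomal proteins of the worm come from a single gene, whose transcript is among the most abundant in growing larvae. A few come from a pair of genes. The best studied pair is rpl-11.1 and rpl-11.2, whose product contacts the 5S ribosomal RNA, and rpl-11.1, the autosomal copy, is known to be needed for normal growth of the germline. From mid-larval life onward the germline takes a growing part of the worm.

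The libraries held total RNA depleted of ribosomal RNA, and the deposited counts summed to 22587893 to 36083371 per library in course B and 16241561 to 29911888 in course A. Levels are given as CPM (counts per 1e6 of the library total) after scaling of the totals with TMM, which gave factors of 0.819 to 0.938 in course B and 0.988 to 1.23 in course A. Each course has 1 library per time. The p-values of the fits below rest on how far libraries lie from the fitted values. The exact tests of shares and ratios fit no curve and treat successive times as exchangeable, which ordered times of 1 course are not. The SDs given with n are spreads over times, not over replicates. None of the p-values holds information on the spread between cultures. The bacterium, the plate medium and the day of growth differ together between the courses and cannot be told apart. Developmental age at an equal title time may differ as well and cannot be told apart from them. Rises and falls of markers are trends called by the rule given with the first comparison below. Among the 24 germline and oocyte marker genes, 22 rose in course B (16% of all genes tested) and 23 in course A (21.1%). Of the 12 sperm markers, 9 passed the filter on low counts in course B and 10 in course A, and all of these rose. A marker near 0 in the earlier libraries passes that filter only through later ones. For such markers the rise was largely set by the filter and is no separate evidence. Of the 10 neuron markers, 9 fell in course B (12.1% of all genes tested) and 8 in course A (12.7%). Of the 9 intestine markers, 0 were called in course B and 2 rose in course A. Among 9 body wall muscle markers, 2 fell in course B and 1 in course A, and 1 of 7 hypodermis markers fell in each course.

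The members made up a large part of the measured RNA. Their summed counts were 8.96% to 12.2% of each library in course B and 8.31% to 13.9% in course A, with the lowest value at 36 h and the highest at 30 h in course B, and at 34 h and 22 h in course A. In each library, between 11 and 27 of the 50 most abundant genes were members (median 19). In course B the share was 10.8% ± 1.16 in the later libraries (28 to 36 h) and 10.8% ± 0.495 in the earlier ones (18 to 26 h; SD, n = 5 each), a difference of -0.078 percentage points (exact permutation test, two-sided, p = 0.889). In course A it was 9.97% ± 1.27 in the later libraries (29 to 36 h) and 11.8% ± 1.17 in the earlier ones (21 to 28 h; SD, n = 8 each), a difference of -1.86 points (exact permutation test, two-sided, p = 0.00963, adjusted p = 0.0193 over the 2 courses). The later and earlier libraries overlapped in both courses. As a percentage of the TMM-scaled totals, the course A difference was -1.30 points (exact p = 0.117).

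At the 8 times present in both courses, 22 to 36 h, the share was 10.9% ± 0.940 in course B and 10.6% ± 1.75 in course A (SD, n = 8 each). Course B was higher at 5 of the 8 times, by 0.223 points on average (exact sign-flip test, two-sided, p = 0.695). On TMM-scaled totals the difference was 2.26 points (exact p = 0.0234), so this comparison rests on the scaling. With course A taken 3 h earlier, it was -0.47 points over 7 pairs (exact sign-flip p = 0.344).

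**Figure D1:**
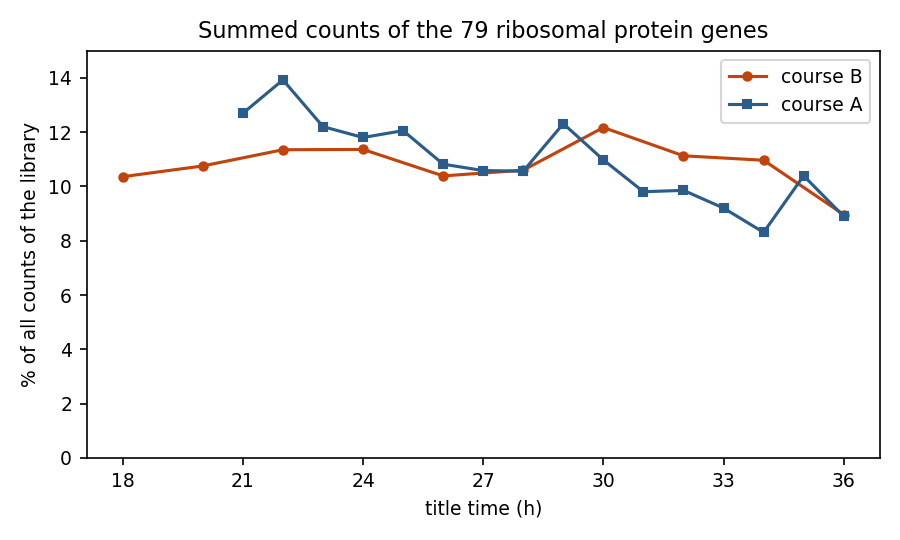
Summed counts of the 79 ribosomal protein genes as a percentage of all counts of the library (vertical axis) by title time in h (horizontal axis), for course B (circles) and course A (squares), 1 point per library. Course A runs between 8.31% and 13.9%, with lower values after 30 h, and course B between 8.96% and 12.2%.

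Single members differed more from each other than the courses did. Per kb of coding sequence, the mean level over the 26 libraries ran from 338 CPM per kb for rps-27 to 8337 CPM per kb for rps-0 among the 78 members other than rpl-42, a range of 24.7 times around a median of 2379. The middle of this distribution was narrower, with the 10th percentile at 1023 and the 90th at 4789 CPM per kb. Medians were 1964 CPM per kb for rpl, 2766 for rps and 1656 for rla genes. The order of the members was much the same in the courses, with a Spearman correlation of 0.923 across the 78 genes, whose libraries share their preparation kit. The correlation of level with coding length (153 to 1203 bp) was 0.241.

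Among the large subunit genes, rpl-21, rpl-6 and rpl-32 had the highest levels per length, with 6707, 6696 and 5485 CPM per kb. The lowest were rpl-18 at 661, rpl-24.2 at 385 and rpl-42 at 5.86 CPM per kb. rpl-24.2 is the relative of a ribosome biogenesis factor that sits in the precursor subunit where the rpl-24.1 protein later binds. In the small subunit, rps-0, rps-23 and rps-8 led with 8337, 8081 and 6751 CPM per kb, and rps-13, rps-22 and rps-27 were lowest with 688, 628 and 338. rps-23 encodes a protein of the decoding centre. Of the stalk genes, rla-0, which encodes the base of the stalk, had 4040 CPM per kb, and rla-1 and rla-2, whose products bind it, had 1656 and 1343. With the exception of rpl-42, no member had fewer than 1083 counts in any library. In the annotation, 13 members hold small nucleolar RNA genes, 4 overlap another coding gene on the same strand and 11 one on the opposite strand. How strand was treated in counting is not given in the sources used here, so reads from such neighbours cannot be told apart from the members' own.

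The first comparison asked which members changed their share of the RNA through each course. A trend is the fitted change over 15 h on the log2 scale, next to an 8 h cycle, and was called at an adjusted p under 0.05 (edgeR's quasi-likelihood test, Benjamini-Hochberg adjustment over all genes tested) and a size of at least 1. In course B, 2 members rose (16% of all genes tested) and 0 fell (12.1%). Those 2 were rpl-11.1 and rpl-42. DESeq2 and limma called 0 falls too, and edgeR's unadjusted p was under 0.05 for 7 members in either direction. In course A the same 2 rose (21.1% of all genes) and 2 fell (12.7%), which were rpl-25.1 and rpl-11.2. Rises called in both courses made up 15% of the genes tested in both. The members' median trend was -0.02 in course B, where the median of all genes was -0.06, and -0.37 in course A, where it was 0.04. In whole worms, fewer cells of a type and less RNA per cell cannot be told apart.

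At an adjusted p under 0.05 with no minimum size, 3 members rose in course B (22.9% of all genes) and 2 fell (23.0%), while 2 rose in course A (28.9%) and 29 fell (19.6%). In course B, DESeq2 gave 5 rising and 2 falling. With total counts as the only scaling, 61 members fell in course A, where the median of all genes was then -0.09 and that of the members -0.51. The falls in course A were spread over the ribosome. All 31 rps genes had estimates below 0, of which 10 passed, with a range of -0.68 to -0.12. The lowest was rps-13, at -0.68 ± 0.17 (edgeR, adjusted p = 0.0032), which had a trend of 0.02 in course B. Of the 45 rpl genes, 42 lay below 0 and 17 passed, and 2 of the 3 rla genes passed. In course B, 16 of the 31 rps genes lay below 0 and none passed (1 at an unadjusted p under 0.05). The count of 29 depended on single libraries of course A. It was 14 without the library of 25 h or that of 36 h, 18 without 31 h, 19 without 22 h and 63 without 35 h. The 2 that fell in both courses at an adjusted p alone were rpl-11.2 and rpl-25.1 (14.4% of the genes tested in both), and the 2 that rose in both were rpl-11.1 and rpl-42 (19.7%). None fell in both by at least 1 on the log2 scale (7.84%).

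The difference of the trends between the courses was tested over all 26 libraries. The estimate of course B minus course A was above 0 for 78 of the 79 members, with a median of 0.41 where that of all genes was -0.01. No member passed at an adjusted p under 0.05 (0.168% of all genes passed higher and 0.373% lower), and 24 had an unadjusted p under 0.05. DESeq2 and limma on the deposited values each passed 5 at an adjusted p under 0.05.

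Within a course, the members other than rpl-42 varied less from library to library in course B. The median SD of their log2 CPM was 0.13 over the 10 libraries of course B and 0.29 over the 16 of course A. In the 2025 other genes with a mean of at least 100 CPM, the median SD was 0.24 in course B and 0.29 in course A.

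**Figure D2:**
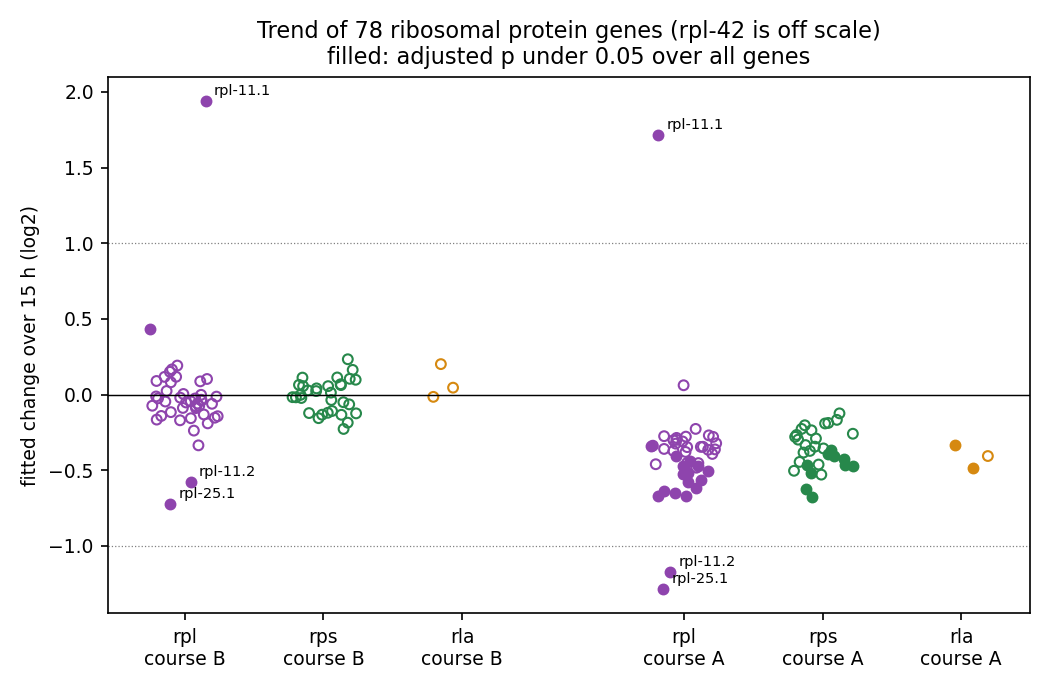
Fitted change over 15 h on the log2 scale (vertical axis) for the 78 ribosomal protein genes other than rpl-42, 1 point per gene, by gene class in course B (left) and course A (right). Filled points have an adjusted p under 0.05. rpl-11.1 stands at 1.94 in course B and 1.71 in course A, and most points of course A lie below 0.

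rpl-11.1 (WBGene00004422, on chromosome V in the WBcel235 annotation) was the abundant member with the largest rise in both courses. In course B it had 752, 871, 1100.1, 1564 and 1410.2 CPM in the 5 later libraries, against 316, 398, 413, 496 and 663 CPM in the 5 earlier ones. In course A its lowest, median and highest values were 807, 1025 and 1765 CPM in the later libraries, against 494, 556 and 620 CPM in the earlier ones. In both courses every later library lay above every earlier one, and the highest values were those of 34 and 36 h in course B and 35 and 36 h in course A. The fitted trend was 1.94 ± 0.11 in course B (standard error, edgeR quasi-likelihood test, adjusted p = 2.1e-06) and 1.71 ± 0.18 in course A (adjusted p = 9.1e-07).

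rpl-11.2 (WBGene00004423), the X-linked copy of the same coding length (588 bp), went the other way. In course B it had 1498, 1638, 1462, 1421 and 906 CPM in the later libraries, against 1765, 1747, 1811, 1762 and 1656 CPM in the earlier ones. Here every later library lay below every earlier one, and that of 36 h stood lowest. In course A its lowest, median and highest values were 506, 766 and 1421 CPM in the later libraries, against 723, 1281 and 1797 CPM in the earlier ones, and the groups overlapped. Its trend was -0.58 ± 0.15 in course B (edgeR, adjusted p = 0.014) and -1.18 ± 0.27 in course A (adjusted p = 0.0022). Without the library of 36 h, the course B trend was -0.29 (adjusted p = 0.0184).

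Within the pair, the share of rpl-11.1 counts was larger at the end of each course than at its start. It was 15.2% at 18 h and 60.9% at 36 h in course B, and 24.5% at 21 h and 70.2% at 36 h in course A. It passed 50% at 34 h in course B and at 31 h in course A. The summed level of the pair was 2525 ± 288 CPM in the later and 2205 ± 93.5 CPM in the earlier libraries of course B (SD, n = 5 each), and 1962 ± 393 CPM in the later and 1832 ± 384 CPM in the earlier libraries of course A (SD, n = 8 each).

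The ratio inside a library needs no scaling between libraries, and was tested for the 3 pairs whose names differ in the suffix alone. The log2 ratio of rpl-11.1 over rpl-11.2 was -0.31 ± 0.70 in the later and -1.98 ± 0.44 in the earlier libraries of course B (SD, n = 5 each), a difference of 1.67 (exact permutation test, two-sided, p = 0.00794, the smallest that 5 against 5 can give, adjusted p = 0.0159 over the 6 tests). In course A it was 0.43 ± 0.67 in the later and -1.09 ± 0.54 in the earlier libraries (SD, n = 8 each), a difference of 1.52 (exact permutation test, p = 0.000622, adjusted p = 0.00373). At the same title times the log2 ratio was lower in course B at 8 of 8 times, by 0.56 on average (B minus A, -0.56 ± 0.20, SD, exact sign-flip test, p = 0.00781, the smallest that 8 pairs can give). With course A taken 3 h earlier, the difference was -0.10 ± 0.22 over 7 pairs (exact p = 0.297). How reads that match both copies were counted is not given in the sources used here, and such reads would draw the values of the copies together or apart.

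**Figure D3:**
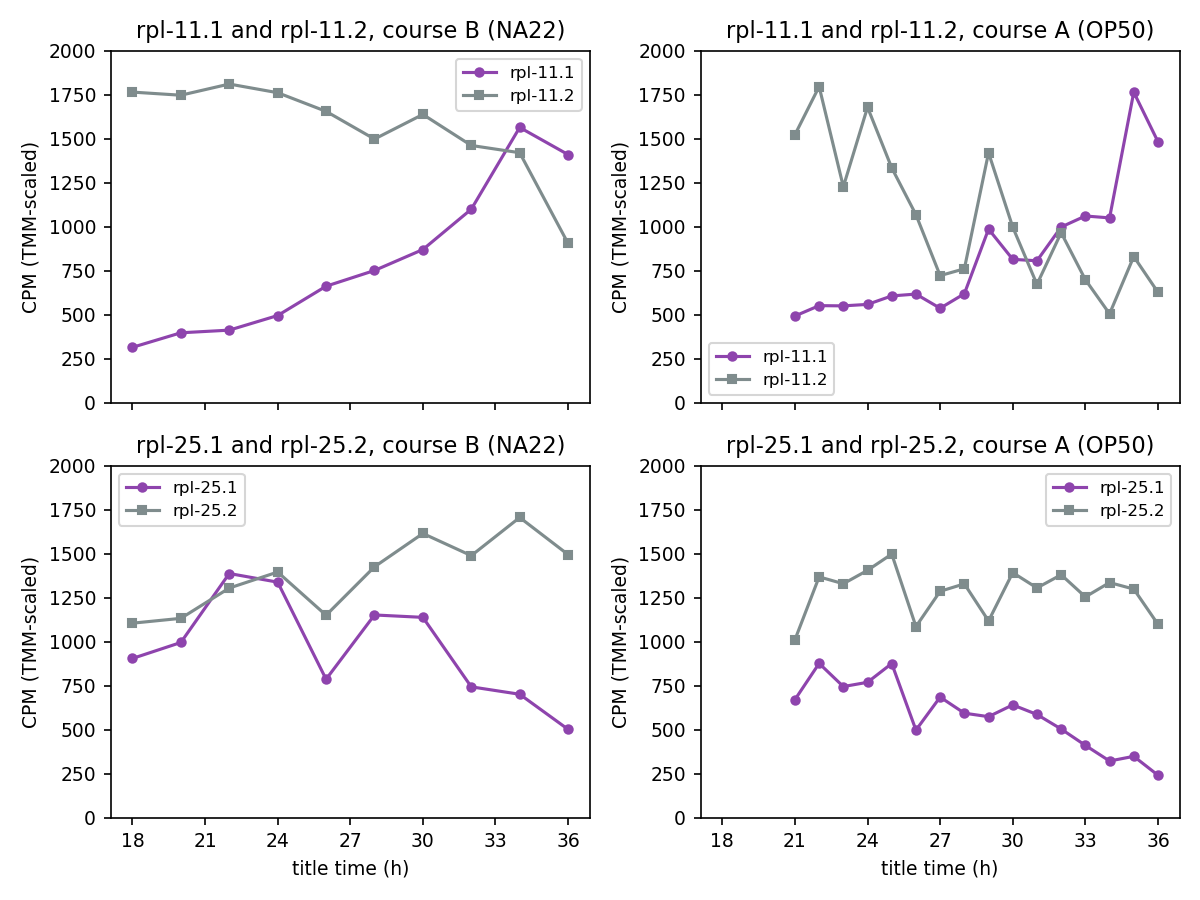
CPM (vertical axis) by title time in h (horizontal axis) for rpl-11.1 and rpl-11.2 (upper row) and for rpl-25.1 and rpl-25.2 (lower row), in course B (left) and course A (right), 1 point per library. The lines of rpl-11.1 and rpl-11.2 cross at 34 h in course B and at 31 h in course A, and those of rpl-25.1 and rpl-25.2 draw apart with time.

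The pair rpl-25.1 and rpl-25.2 encodes a protein near the exit of the peptide tunnel. rpl-25.1 (WBGene00004438, chromosome X) had 1152, 1138, 744, 702 and 502 CPM in the later libraries of course B, against 905, 996, 1388, 1338 and 787 CPM in the earlier ones. In course A its lowest, median and highest values were 242, 458 and 641 CPM in the later libraries, against 498, 716 and 877 CPM in the earlier ones. The groups overlapped in both courses, and the library of 36 h was lowest in each. Its trend was -0.72 ± 0.25 in course B (edgeR, adjusted p = 0.041) and -1.28 ± 0.25 in course A (adjusted p = 0.00044). The course B trend was -0.40 without the library of 36 h (adjusted p = 0.178). Its adjusted p there was below 0.05 only without the library of 20 or of 28 h, among the 10 libraries left out in turn.

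rpl-25.2 (WBGene00004439, chromosome I) had 1426, 1615, 1489, 1706 and 1495 CPM in the later libraries of course B, against 1105, 1133, 1305, 1396 and 1151 CPM in the earlier ones. Every later library lay above every earlier one, and the trend was 0.43 ± 0.11 (edgeR, adjusted p = 0.012), below the minimum size. In course A it had a median of 1302 CPM in the later and 1329 CPM in the earlier libraries, and a trend of 0.06 ± 0.15 (adjusted p = 0.76), which was -0.07 with total counts as the only scaling. The log2 ratio of rpl-25.1 over rpl-25.2 differed by -0.73 between later and earlier libraries of course B (exact permutation test, p = 0.0317, adjusted p = 0.0476) and by -0.69 in course A (exact p = 0.0014, adjusted p = 0.0042). Without the library of 20, 22, 24, 32, 34 or 36 h, the exact p of course B was no longer below 0.05 (at most 0.0635). The ratio was higher in course B at 8 of the 8 shared times, by 0.68 ± 0.14 (SD, exact sign-flip test, p = 0.00781). With course A taken 3 h earlier, it was higher by 0.22 ± 0.26 at 5 of 7 pairs (exact p = 0.109).

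rpl-11.2 and rpl-25.1 are the only 2 of the 79 members on chromosome X. Over all genes, 20.3% of the 2072 X-linked genes tested in course B fell, against 10.7% of 12532 autosomal genes, and 20.0% of the 2215 X-linked genes tested in course A, against 11.4% of 13225. Of the X-linked genes 4.34% rose in course B and 11.5% in course A, against 18.0% and 22.8% of the autosomal genes. The median trend of the members on each autosome lay between -0.04 and 0.11 in course B and between -0.41 and -0.32 in course A. This grouping by chromosome was made after the values of both genes were seen.

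For rpl-24.1 and rpl-24.2, both on chromosome I, the ratio moved little with time. rpl-24.1 had a median of 1219 CPM in course B and 826 CPM in course A, and rpl-24.2 had 184 and 179 CPM. The log2 ratio differed between later and earlier libraries by 0.22 in course B (exact permutation test, p = 0.0952) and by 0.16 in course A (exact p = 0.367). It was higher in course B at 8 of the 8 shared times, by 0.57 ± 0.36 (SD, exact sign-flip test, p = 0.00781), and by 0.65 ± 0.40 at 7 of 7 pairs with course A taken 3 h earlier (exact p = 0.0156, the smallest that 7 pairs can give). rpl-24.2 had trends of -0.34 in course B (edgeR, adjusted p = 0.053) and -0.58 in course A (adjusted p = 0.038). Its course B trend was -0.14 without the library of 36 h (adjusted p = 0.382). In course A its adjusted p was above 0.05 without the library of 22, 23, 24, 25, 27, 31, 32, 33 or 36 h (at most 0.104).

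rpl-42 (WBGene00004455, chromosome II) stood apart from every other member by its level. In course B it had 0, 1, 1, 0 and 0 counts in the libraries of 18 to 26 h, then 0, 6, 54, 110 and 260 counts from 28 to 36 h. In course A it had 12 counts in all over the libraries of 21 to 28 h, with 0 in 5 of the 8, and then 14, 32, 71, 116, 117, 165, 399 and 241 counts from 29 to 36 h. Nearly all of its counts were in the later libraries of each course, and in course A the groups did not overlap. A count of 0 allows a level of up to 3 counts, or 0.0932 to 0.186 CPM depending on the library.

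Pooled over libraries, rpl-42 had 3.31 CPM in the later and 0.0155 CPM in the earlier libraries of course B (430 and 2 counts), a ratio of 213 with a 95% interval of 58.7 to 1768 by the exact binomial method. In course A it had 6.12 and 0.0697 CPM (1155 and 12 counts), a ratio of 87.8 with an interval of 50.1 to 170.5. These intervals and floors cover counting error only. The trend passed in both courses (edgeR, adjusted p = 7.2e-05 in course B and 7.0e-09 in course A). In each course the gene met the filter on low counts only through later libraries, where it is high. These p-values are therefore no separate evidence of the rise. Without the library of 32, 34 or 36 h in course B, the gene no longer passed the filter on low counts and was not tested. Even at its highest, 13.5 CPM at 35 h in course A, rpl-42 lay far below rpl-36.A, another rpl gene of chromosome II, which had 1115 to 2063 CPM in the same course.

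**Figure D4:**
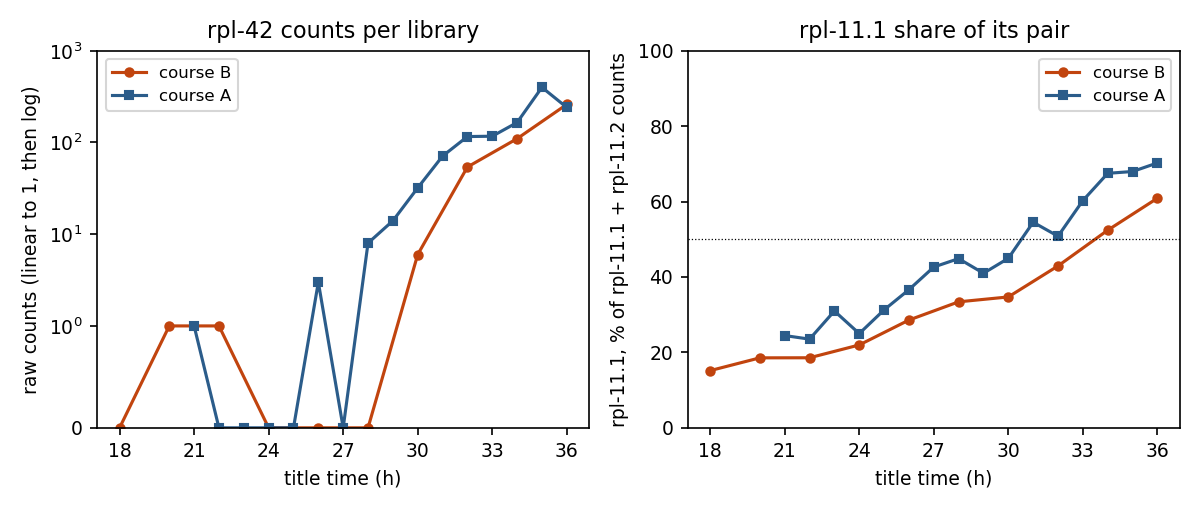
Left, raw counts of rpl-42 per library by title time in h, on an axis that is linear up to 1 and logarithmic above. Right, rpl-11.1 as a percentage of the summed counts of rpl-11.1 and rpl-11.2, with a dotted line at 50%. Circles are course B and squares course A. In both panels the values are low in the first libraries and climb toward 36 h, and rpl-11.1 ends at 60.9% in course B and 70.2% in course A.

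Markers of germline and sperm rose with rpl-11.1 and rpl-42, while most neuron markers fell. The summed level of the 24 germline and oocyte markers was 1333 to 3124 CPM in the later and 492.7 to 1095 CPM in the earlier libraries of course B, and 1067 to 3252 CPM in the later and 643 to 939 CPM in the earlier libraries of course A. The 12 sperm markers summed to 6.39 to 659 CPM in the later and 0.824 to 2.89 CPM in the earlier libraries of course B, and to 61.9 to 566 CPM in the later and 4.27 to 31.3 CPM in the earlier libraries of course A. The sperm gene msp-3 was at 0 in every earlier library of both courses. The part of these cells in the rises of both genes was not tested.

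The 5 genes whose log2 CPM followed rpl-11.1 most closely, centred within each course over the 26 libraries and among 5902 named genes, were iff-1 (Pearson r = 0.995), immt-2 (0.984), rga-3 (0.979), pgl-1 (0.978) and wago-1 (0.972). iff-1 encodes the translation factor eIF5A made in the germline, pgl-1 a component of germline P granules and wago-1 an Argonaute protein. All 26 points share the same course of development, so these values describe a likeness in time. iff-1 rose by 2.30 ± 0.11 in course B (edgeR, adjusted p = 9.0e-07) and 1.84 ± 0.18 in course A (adjusted p = 4.3e-07). As it was picked here by its likeness to rpl-11.1 in these same libraries, its rise is no separate evidence.

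The next question was whether members followed the 8 h cycle of molting. None of the 79 was called in course B (21% of all genes) or in course A (22.8%), with edgeR at an adjusted p under 0.05 and a fitted peak at least 1 log2 unit above the trough. DESeq2 and limma called 0 as well, and at an unadjusted p under 0.05 edgeR gave 1 in course B and 17 in course A. The median peak-to-trough difference of the members was 0.16 in course B and 0.32 in course A, and that of all genes was 0.56 and 0.59. At an adjusted p alone, edgeR passed 0 in course B (29.2% of all genes) and 4 in course A (33.9%), while DESeq2 passed 1 and limma 3 in course B, and 7 and 12 in course A. The 4 of edgeR were rpl-32 (0.77, adjusted p = 0.0156), rpl-26 (0.71, adjusted p = 0.0159), rps-14 (0.75, adjusted p = 0.0307) and rps-21 (0.76, adjusted p = 0.043). The adjusted p of rps-14 was above 0.05 without the library of 21, 26, 27, 28, 30 or 32 h (at most 0.0851), and that of rps-21 without the library of 21 to 26, 30, 31, 32 or 35 h (at most 0.0975). rps-12 was called in course A with a difference of 1.07 when the library of 31 h was left out (adjusted p = 0.0333).

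The shape of these small cycles was not the same in all 4 genes. The fitted cycle of rpl-32, rpl-26 and rps-14 peaked at 31.1 to 31.2 h in course A, and that of rps-21 at 27.6 h. These times are phases of a curve that repeats every 8 h, not the times of the highest values. rpl-32 had 1070.0 to 3036 CPM in course A, with its 5 highest values at 22, 23, 24, 25 and 30 h. rps-21 had 276 to 646 CPM in course A, with its 4 highest values at 21, 26, 29 and 35 h. In course B, rpl-32 stayed between 2316 and 3231 CPM and rps-21 between 161 and 225 CPM, with peak-to-trough differences of 0.21 and 0.05.

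The last comparison set the courses side by side at the 8 shared times with time as a block. With edgeR at an adjusted p under 0.05 and 1 log2 unit or more between the courses, 1 member was higher in course B (1.79% of all genes) and 0 were lower (7.74%), where limma gave 0 and DESeq2 1. With no minimum size 27 were higher (12.2%) and 3 lower (16.9%). The members' median difference was 0.23 where that of all genes was -0.13. With total counts as the only scaling, the median of all genes was -0.38 and that of the members -0.02, and the split became 16 higher and 15 lower. Relative to the median of all genes, the members stood at 0.36 under either scaling.

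rpl-4, whose product lines the peptide exit tunnel, was the member called. It had 1830.1, 2454 and 2750 CPM as lowest, median and highest value at the shared times in course B, against 760, 1123 and 1473 CPM in course A. The courses did not overlap, and course B was higher at 8 of 8 times, with a difference of 1.07 ± 0.12 (edgeR, adjusted p = 0.00061). Without the pair of libraries at 34 h the difference was 0.97, below the minimum. It was 0.82 with total counts alone, 0.87 with course A taken 3 h earlier and 0.91 at harvest times. Just below the minimum lay rpl-20 at 0.996, and rps-12 and rpl-2 at 0.97 each, all higher in course B at 8 of 8 times. These 3 were called too without the libraries of 22, 24 or 32 h.

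At the other end stood short genes. rps-21, a small subunit gene of 264 bp, averaged 203 CPM in course B and 382 CPM in course A (-0.90 ± 0.14, edgeR, adjusted p = 0.0028, higher at 0 of 8 times). rpl-29 (186 bp) averaged 434 CPM in course B and 726 CPM in course A (-0.76 ± 0.11, adjusted p = 0.0016, higher at 0 of 8 times). rpl-31 (366 bp) averaged 494 and 655 CPM (-0.43 ± 0.11, adjusted p = 0.024). rpl-42 had the lowest estimate, -1.44 ± 0.62 (adjusted p = 0.12), which was 1.09 with course A taken 3 h earlier (adjusted p = 0.057).

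The course difference went with coding length. In the 26 shortest members (153 to 390 bp) its median was 0.03, in the middle 27 (393 to 567 bp) 0.33 and in the 26 longest (567 to 1203 bp) 0.36. The Spearman correlation across the 79 members was 0.409. It was 0.315 across the 14790 other genes tested, and 0.0876 across the 8338 of them that were no longer than the longest member. Genes are not independent replicates, all points share the same libraries, and the part of library preparation in this relation was not tested.

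**Figure D5:**
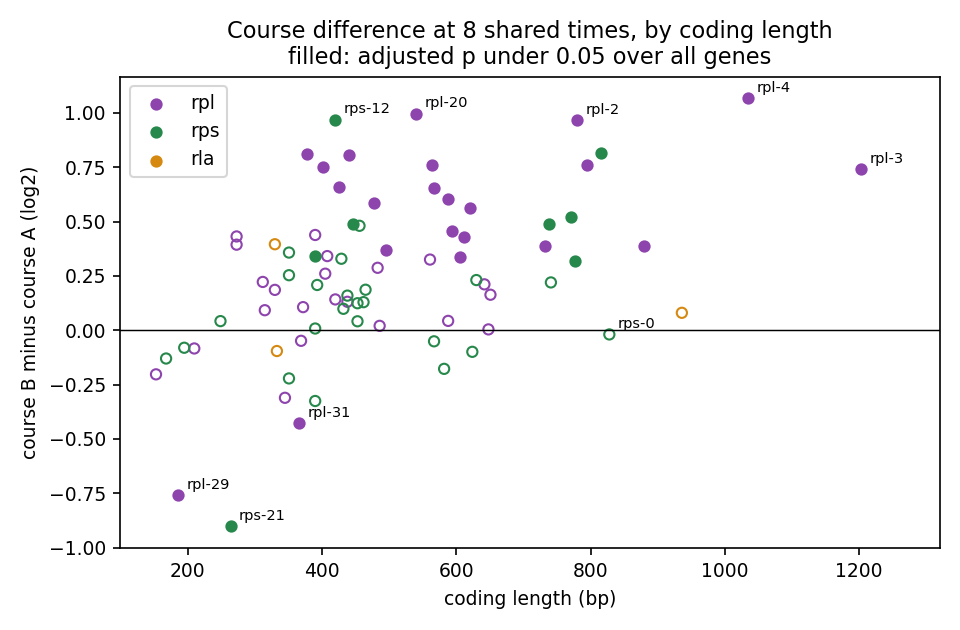
Course B minus course A on the log2 scale at the 8 shared times (vertical axis) by coding length in bp (horizontal axis), 1 point per ribosomal protein gene other than rpl-42, coloured by gene class. Filled points have an adjusted p under 0.05. rpl-4 is highest at 1.07, and the short genes rps-21 and rpl-29 are lowest at -0.90 and -0.76.

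Other genes of the ribosome and of translation were described from lists. Over all genes tested, 16% were called rising and 12.1% falling in course B, and 21.1% and 12.7% in course A. Of the 69 mitochondrial ribosomal protein genes tested, none was called rising or falling in either course. Their medians were -0.15 in course B and -0.39 in course A. At an adjusted p alone, 9 of them fell in course B (edgeR, 23.0% of all genes) and 24 in course A (19.6%). Neither ubl-1 and ubq-2, which encode ribosomal proteins fused to ubiquitin or a ubiquitin-like protein, nor the ribosome-bound rack-1 was called, though 1 of the 3 fell in course A at an adjusted p alone. The 28 nucleolar ribosome biogenesis genes and the 6 RNA polymerase I subunits held no called trend, at medians of 0.04 and 0.14 in course B and -0.22 and -0.14 in course A. Of the 34 genes listed as initiation factors, 1 was called falling in course A (12.7% of all genes). Those called rising in both courses were 3 of the 34 (15% of the genes tested in both), led by ife-5, a germline eIF4E, and iff-1. The trend of ife-5 was 2.33 ± 0.32 in course B and 2.48 ± 0.31 in course A (edgeR, adjusted p = 0.00045 and 5.3e-06).

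Among the 9 elongation and release factors, eef-1A.2, which encodes the factor that brings transfer RNA to the ribosome, fell by 1.25 in course A (edgeR, adjusted p = 6.8e-05) and by 0.90 in course B (adjusted p = 0.0064). It was also higher in course B at the shared times, at 1461 CPM against 524 CPM in course A (1.495 ± 0.13, adjusted p = 0.00028). The other listed genes called higher in course B were mrps-31 (1.18) and mrpl-45 (1.27) of the mitochondrial ribosome, fib-1 (1.19), the nucleolar methyltransferase fibrillarin, tsr-1 (1.11), the RNA polymerase I subunit gene rpoa-1 (1.02) and eif-2alpha (1.04), with adjusted p from 0.00015 to 0.0040. Called higher were 2 of 69 mitochondrial ribosomal protein genes, 1 of 34 listed initiation factors and 1 of 9 elongation and release factors. So were 2 of 28 nucleolar genes and 1 of 6 RNA polymerase I subunits (1.79% of all genes). No gene of these lists was called lower (7.74% of all genes). These calls were made with TMM scaling, where the median of all genes was -0.13, against -0.38 with total counts as the only scaling.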

How the data were processed

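Per the file headers, the authors deposited a table of raw counts per gene, 1 column per library, and a table of normalized log2 values. The deposited log2 values match log2(x + 8) to within 5e-05, x being the count rescaled to the average library total of the same course, so that the courses lie 0.47 apart at equal share. Aligner, counting tool, genome build and strand setting: not given in the sources used here. Names were joined by identifier for 18778 of 20182 genes, and coding lengths came from the WBcel235 annotation.

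Counts were fitted in R 4.3.3 with edgeR 4.0.16 (quasi-likelihood, robust, TMM). Each course had terms for linear time and an 8 h cycle, and the course contrast used the 8 shared times with time as a block, which needs no pairing beyond the title time. Genes needed 10 counts at the median library size in 3 libraries. Fits were also run on simulated counts with a single dispersion and independent libraries. Such counts cannot show how the tests behave on the ordered times of a course. Calls took a Benjamini-Hochberg adjusted p under 0.05 over all genes tested and 1 on the log2 scale. Shares and ratios (plus 0.5 counts) were tested by exact permutation or sign-flip. Alternatives were DESeq2 1.42.0, limma 3.58.1 on the deposited log2 values, other scalings, filters, periods, times and each library left out.

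The members and gene lists were chosen with earlier results of these data known. Named members were the suffix pairs, all called members, the 3 highest and 3 lowest levels per class, and the rla genes. The 3 largest and smallest trends and course differences were named too. Other named genes were the 5 most like rpl-11.1 and the 2 largest called trends of each other list of ribosome or translation genes. The rule of 2 per list was also set for the cell type markers, but of its picks there msp-3 alone is named. Others, such as rps-14, rpl-2, rpl-26, rpl-31 and rpl-36.A, were named after their values were seen. The course comparison of the ratios was added after seeing the data.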

Additional observations from a re-analysis of the deposited data

How the results depend on the processing

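No time was sampled more than once, so no result has a replicate at its own time. The numbers of members called rising were the same under every alternative scaling, tool and filter run. In course A the called falls became 15 with a fold minimum of 0.5, and the falls at an adjusted p alone became 61 with total counts as the only scaling and 62 with limma. In course B the called falls became 2 with a fold minimum of 0.5. The trend of rpl-25.2 in course A became -0.071 with total counts and -0.060 with limma, and that of rpl-24.1 in course B 0.056 with DESeq2's size factors and with DESeq2.

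In course A the cycling members became 4 with a fold minimum of 0.5. At an adjusted p alone they became 12 with total counts, 7 with DESeq2, 12 with limma and 0 with a 9 h period.

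For the course difference, the members called higher became 17 with a fold minimum of 0.5, 2 with DESeq2's size factors, 0 with total counts, 2 with DESeq2, 7 with limma, 4 without the low count filter, and 2 each with course A taken 3 h earlier and at harvest times. At an adjusted p alone they became 16 with total counts and 61 with limma. The members called lower became 2 with a fold minimum of 0.5, 2 with total counts, and 1 each with DESeq2, course A taken 3 h earlier and harvest times. At an adjusted p alone they became 15, 5, 9 and 9 with total counts, DESeq2, course A taken 3 h earlier and harvest times. With total counts the difference became -0.21 for rpl-11.1, -0.23 for rpl-24.2 and -0.12 for rpl-25.2. That of rpl-24.2 was -0.083 with course A taken 3 h earlier, -0.018 at harvest times and -0.0067 with no replicate block, that is without time as a block. With no replicate block 1 member was called higher, as with the block, and no other named gene changed its call. rpl-42 became 1.09 with course A taken 3 h earlier, and the difference of its trends 3.64 over the title times 22 to 36 h.

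On TMM-scaled totals the change of the summed share was -1.30 in course A and its course difference 2.26, and with course A taken 3 h earlier -0.47. With that shift, chosen after seeing the data for shares and ratios, the course difference of the log2 ratio became -0.10 for rpl-11.1 over rpl-11.2 and 0.22 for rpl-25.1 over rpl-25.2. The causes of these changes were not tested.

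With each library left out in turn, the falls of course A at an adjusted p alone ran from 14 to 63, the rises called in course B from 1 to 2, and the cycling members of course A from 0 to 1, or 2 to 10 at an adjusted p alone. Members higher in course B ran from 0 to 4, or 16 to 36 at an adjusted p alone, and those lower at an adjusted p alone from 2 to 4. The trend of rpl-25.2 in course A ran from -0.12 to 0.14, and that of rpl-24.1 in course B from -0.056 to 0.17. The course difference ran from -0.044 to 0.11 for rpl-11.1 and from -0.012 to 0.055 for rpl-24.2. The change of the summed share ran from -0.43 to 0.37 in course B and its course difference from -0.13 to 0.62. The ratio of rpl-24.1 over rpl-24.2 changed by 0.15 to 0.28 in course B, and that of rpl-25.1 over rpl-25.2 by -0.89 to -0.57.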
